A study of Mus musculus with 2 samples.

Results

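The mir-30 family comprises 6 microRNA (miRNA) genes in the mouse, Mir30a, Mir30b, Mir30c-1, Mir30c-2, Mir30d and Mir30e. They were taken by symbol from the 2202 miRNA genes counted in these libraries, and they lie as neighbouring pairs at 3 loci, Mir30a with Mir30c-2, Mir30d with Mir30b and Mir30e with Mir30c-1. Small RNA below 30 bases was sequenced from the gastrocnemius, the large calf muscle, of female B6CASTF1/J mice aged 4 days, which are first-generation hybrids of C57BL/6J and CAST/EiJ. The labels name no treatment. The only group held 2 libraries, from females that the labels number separately but enter under the same donor record. No condition could be compared with another, so what follows are levels in 1 tissue and how far the libraries differed, and whether each library is 1 animal or a pool is not given in the sources used here.

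A miRNA gene is transcribed as part of a longer RNA, from which a hairpin is cut and then trimmed to short mature forms from its 5′ arm (5p) and its 3′ arm (3p). The mature form guides silencing complexes to messenger RNAs through its seed, bases 2 to 8. The mir-30 family is broadly expressed and is known for high levels in heart, kidney and skeletal muscle. It is known to repress the connective tissue growth factor gene in heart, transcription factors of bone formation during fat cell differentiation, and, in cultured muscle cells, the silencing cofactor Tnrc6a during differentiation.

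RefSeq sequences on GRCm38.p6, the assembly called mm10 elsewhere, matched 4 of the 6 genes, and their 5p forms are shown first because the seed, in capitals, is what defines the family.

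miR-30a-5p: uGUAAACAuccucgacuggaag
miR-30e-5p: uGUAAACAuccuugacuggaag
miR-30c-5p: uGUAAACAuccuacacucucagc

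They lie at chr1:23272274-23272295 on the plus strand (miR-30a-5p), at chr4:120772660-120772681 on the minus strand (miR-30e-5p), and, for miR-30c-5p, at both chr4:120769584-120769606 on the minus strand and chr1:23291714-23291736 on the plus strand. The 5p forms of Mir30a and Mir30e differed by 1 substitution, C13U, with the base of miR-30a-5p first and positions counted from 1 at the 5′ end. The 5p form of Mir30c-1 and that of Mir30c-2 are the same sequence, which shares its first 12 bases with miR-30a-5p and departs from it after that. The 3p forms carry other seeds, again in capitals, and separate the genes in a second way.

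miR-30a-3p: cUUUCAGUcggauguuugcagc
miR-30e-3p: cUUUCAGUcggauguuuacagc
miR-30c-1-3p: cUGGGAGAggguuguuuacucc
miR-30c-2-3p: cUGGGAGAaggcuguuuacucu

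Mir30a and Mir30e share 1 3p seed, with G18A the only substitution between their 3p forms. Mir30c-1 and Mir30c-2 share another, and their 3p forms differ by G9A, U12C and C22U, with the base of miR-30c-1-3p first. By the 3p seed, then, the chromosome 1 locus and the chromosome 4 locus each hold 1 gene of each kind. The deposited counts are per gene and do not separate the 5p from the 3p arm.

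The loci differ in what surrounds them. On chromosome 1 of mm10, Mir30a (ENSMUSG00000065405.3, chr1:23272269-23272339, plus strand) overlaps no other annotated gene, and Mir30c-2 (ENSMUSG00000065567.1, chr1:23291701-23291784, plus strand) lies 19.4 kb downstream inside exon 1 of the long noncoding RNA gene Gm27028. On chromosome 15, Mir30d (ENSMUSG00000065437.1, chr15:68341208-68341289, minus strand) lies in exon 3 of the noncoding gene Gm20732 and overlaps the unclassified gene Gm37296 by 9 bases. It stands 3.70 kb from Mir30b (ENSMUSG00000065476.2, chr15:68337415-68337510, minus strand), which overlaps an exon of the noncoding gene Gm26621 by 16 of its 96 bases. On chromosome 4, Mir30e (ENSMUSG00000065409.1, chr4:120772606-120772697, minus strand) and Mir30c-1 (ENSMUSG00000065490.1, chr4:120769534-120769622, minus strand) lie 2.98 kb apart. Both are in the intron after exon 5 of Nfyc, which encodes a subunit of the transcription factor NF-Y. The plus strand of exactly the Mir30e interval is annotated as a further miRNA gene, Mir30f.

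Library 1 held 10426665 reads, of which 5569392 (53.4%) fell in a miRNA gene on the strand of that gene (own-strand counts), and library 2 held 8487769, of which 4336759 (51.1%) were. Reads that matched several places came to 36.9% in library 1 and 37.6% in library 2 and belong to no gene. Levels are own-strand counts divided by their library total and scaled to CPM, the usual unit for such counts, and 1 count was worth 0.180 CPM in library 1 and 0.231 CPM in library 2. Detection required at least 2 CPM in each library, which 335 genes reached. Of 9 muscle markers 8 were detected, led by Mir206 at 129336 CPM in library 1 and 119323 in library 2. Mir133a-2, the ninth, had 2 counts in each. Mir1a-1 had 13 counts in library 1 and 9 in library 2, Mir133a-1 25 and 26, and Mir1a-2 91 and 77. These counts, like all others, leave out reads that match several places, so they need not give the level of the mature forms. The 9 summed to 130998 and 120702 CPM, nearly all from Mir206. Among all counted genes, 335 of 2202 were detected. The endothelial, smooth muscle, leukocyte, erythroid and liver lists were detected in full, so the number detected does not by itself identify the tissue.

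All 6 mir-30 genes were detected, and together they held 75446 counts in library 1 and 49785 in library 2. That was 1.35% of gene counts in library 1 (95% exact binomial interval 1.35 to 1.36) and 1.15% in library 2 (1.14 to 1.16), or 1.25% ± 0.146 (SD, n = 2). Intervals here and below allow for counting error alone and treat each read as a separate molecule. Amplified reads with no molecular identifier need not be separate molecules, so the intervals can be too narrow. The counts fell into a high and a low set with a wide gap between them. Mir30a, Mir30d and Mir30e made up 98.8% of the family in library 1 and 98.2% in library 2, while Mir30b, Mir30c-1 and Mir30c-2 together made up 1.23% and 1.83%.

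Mir30d was the highest member, with 35275 counts or 6334 CPM in library 1 and 24149 counts or 5568 CPM in library 2 (5951 ± 541, SD, n = 2). It ranked 32nd of the 335 detected genes in each library. Mir30a followed with 26029 counts or 4674 CPM in library 1 and 16861 counts or 3888 CPM in library 2 (4281 ± 556), at ranks 39 and 44. Mir30e, the highest member within Nfyc, had 13214 counts or 2373 CPM in library 1 and 7865 counts or 1814 CPM in library 2 (2093 ± 395), at ranks 60 and 63. In each of these 3 genes library 1 was the higher library, and the ranges of neighbouring genes in the order did not overlap.

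The low set began 20.7-fold below Mir30e. Mir30b had 532 counts or 95.5 CPM in library 1 and 461 counts or 106 CPM in library 2 (101 ± 7.62, SD, n = 2), at ranks 177 and 174. Mir30c-2 had 213 counts or 38.2 CPM in library 1 and 240 counts or 55.3 CPM in library 2 (46.8 ± 12.1). Mir30c-1 had 183 counts or 32.9 CPM in library 1 and 209 counts or 48.2 CPM in library 2 (40.5 ± 10.8). Library 2 was the higher library in all 3. Mir30b lay above both mir-30c genes in each library, but the range of Mir30c-2 overlapped that of Mir30c-1, and their means differed by 6.27 CPM against summed SDs of 22.9 CPM. The median over the 6 members was 1097 CPM, between the sets and a level at which no member lay, against 123 CPM over all detected genes. Levels were not divided by length, because the RNA sequenced was below 30 bases and the annotated hairpins run only from 71 to 96 bases. Divided by hairpin length, the order of the 6 means was the same, from 72.6 CPM per base for Mir30d to 0.455 for Mir30c-1.

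**Figure D1:**
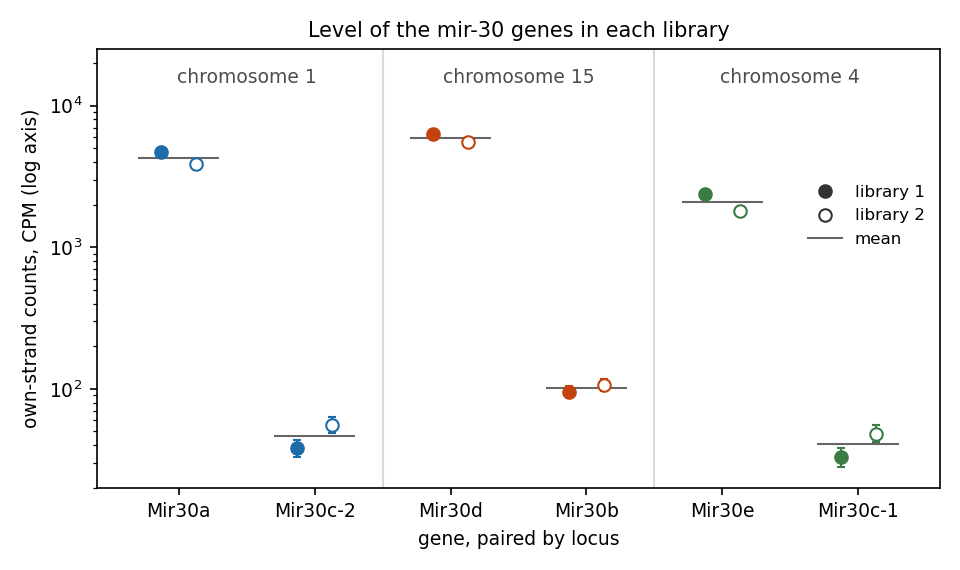
Level of each mir-30 gene in CPM (log axis), with library 1 as filled and library 2 as open circles, the mean as a grey line and 95% Poisson intervals for counting error as bars where they exceed the symbol. Genes stand in pairs by locus; each pair joins a gene at 1814 CPM or more in both libraries to one at 106 CPM or less.

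Each locus thus paired 1 high with 1 low gene. Mir30a exceeded Mir30c-2 by 122-fold in library 1 (95% exact interval 107 to 141) and by 70.3-fold in library 2 (61.8 to 80.1). Mir30d exceeded Mir30b by 66.3-fold (60.9 to 72.4) and by 52.4-fold (47.8 to 57.6). Mir30e exceeded Mir30c-1 by 72.2-fold (62.4 to 84.0) in library 1 and by 37.6-fold (32.8 to 43.4) in library 2. These ratios need no scaling between libraries, because both genes of a pair share the library. On the log2(CPM + 0.5) scale the ratios were 6.52 ± 0.56, 5.87 ± 0.24 and 5.69 ± 0.66 (SD, n = 2).

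The same ratio was taken for every pair of consecutive detected miRNA genes on 1 strand within 50 kb, which gave 120 pairs besides those of mir-30. Their median was a 4.63-fold difference in level; 28 lay within 2-fold and 30 more than 16-fold apart. A difference at least as large as the smallest one of mir-30, that of Mir30e and Mir30c-1, was reached by 17 of the 120 (14.2%). Pairs in a row share a gene, so 1 low gene can give 2 wide pairs, and the 120 are not independent. Mir30a and Mir30c-2 were exceeded by 11 pairs, among them Mir206 with Mir133b and Mir99a with Mirlet7c-1. Wide gaps between the counts of neighbours were therefore found elsewhere in these libraries too. The counts leave out reads that match several places, and no test that the mir-30 loci stand apart was run.

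**Figure D2:**
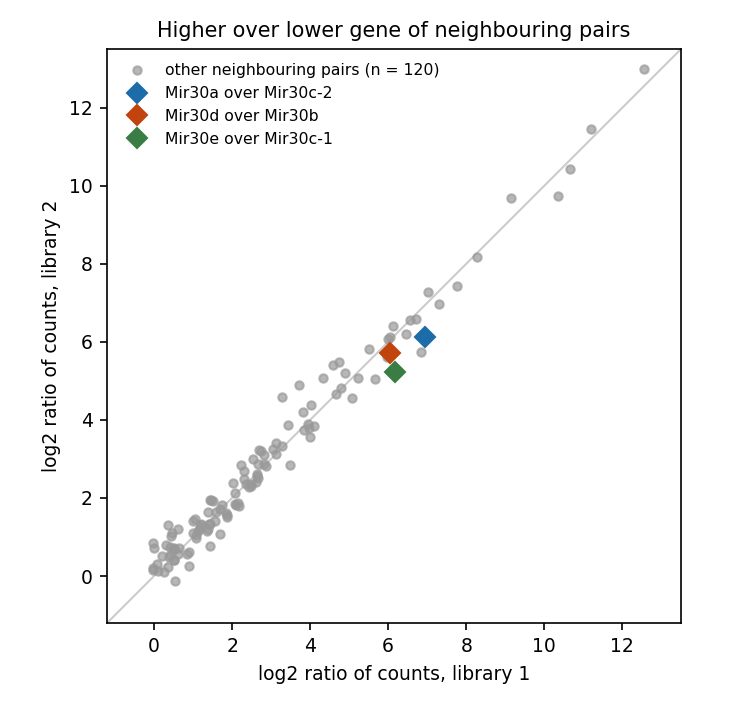
Log2 ratio of counts of the higher to the lower gene in each pair of neighbouring detected miRNA genes, in library 1 (x axis) and library 2 (y axis), with the 120 other pairs in grey and the 3 mir-30 loci as coloured diamonds. The mir-30 loci lie between 5.23 and 6.93, in the upper part of the range, and below the line of equal ratios.

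The order of the loci by their share of the family was the same in both libraries. The chromosome 15 locus held 47.5% of the family counts in library 1 and 49.4% in library 2 (48.4% ± 1.39, SD, n = 2), the chromosome 1 locus 34.8% and 34.3% (34.6% ± 0.306), and the chromosome 4 locus 17.8% and 16.2% (17.0% ± 1.09). Of the counts of both mir-30c genes, Mir30c-1 held 46.2% in library 1 (95% exact interval 41.2 to 51.3) and 46.5% in library 2 (41.9 to 51.3). Those intervals overlap almost wholly, although the combined mir-30c level was 71.1 CPM in library 1 and 104 CPM in library 2.

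Reads that match more than 1 gene are a limit on these levels. The hairpins of Mir30c-1 and Mir30c-2 are shown with the longest stretch they share in capitals.

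Mir30c-1: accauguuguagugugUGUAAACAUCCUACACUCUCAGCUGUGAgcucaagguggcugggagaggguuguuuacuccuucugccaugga
Mir30c-2: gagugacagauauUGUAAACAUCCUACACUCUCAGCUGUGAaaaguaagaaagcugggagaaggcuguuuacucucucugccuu

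The stretch is 28 bases long, begins at the first base of miR-30c-5p and runs 5 bases past its end. A read that lies wholly within it, as all of miR-30c-5p does, matches both genes, and the multimapping reads were counted to none. The counts of Mir30c-1 and Mir30c-2 therefore leave out whole miR-30c-5p reads and are lower limits. Their levels and every ratio or share that uses them, the shares of the family and of the loci included, are uncertain. The other members share shorter stretches with counted genes: Mir30b shares 18 bases with both mir-30c genes, Mir30a and Mir30e share 18 with each other, and Mir30d shares 16 with Mir30e. By level, the 2 genes with 28 bases were the lowest members, and the 3 with 18 bases were Mir30a and Mir30e of the high set and Mir30b of the low set. The part of shared sequence in the levels was not tested, and how many of the multimapping reads came from mir-30 genes was not analysed here.

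In the whole table, 92 counted genes with a RefSeq mature form share one exactly with another counted gene, as the mir-30c genes do, and 40 of these were detected. Their median level was 51.4 CPM and the highest of them, Mirlet7f-2, reached 1840 CPM. The 263 detected genes with no shared form had a median of 165 CPM, with an upper quartile of 1529 CPM. Within the 3 mir-30 pairs, the lower gene had the longer shared stretch each time, though for Mir30b and Mir30d this was 18 against 16 bases. Other pairs were counted only at the extremes, and those between 2-fold and 16-fold apart were not. Among the 30 other pairs more than 16-fold apart, it did in 16, the lengths were equal in 9 and the higher gene had the longer stretch in 5. Among the 28 pairs within 2-fold, the numbers were 6, 10 and 12.

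**Figure D3:**
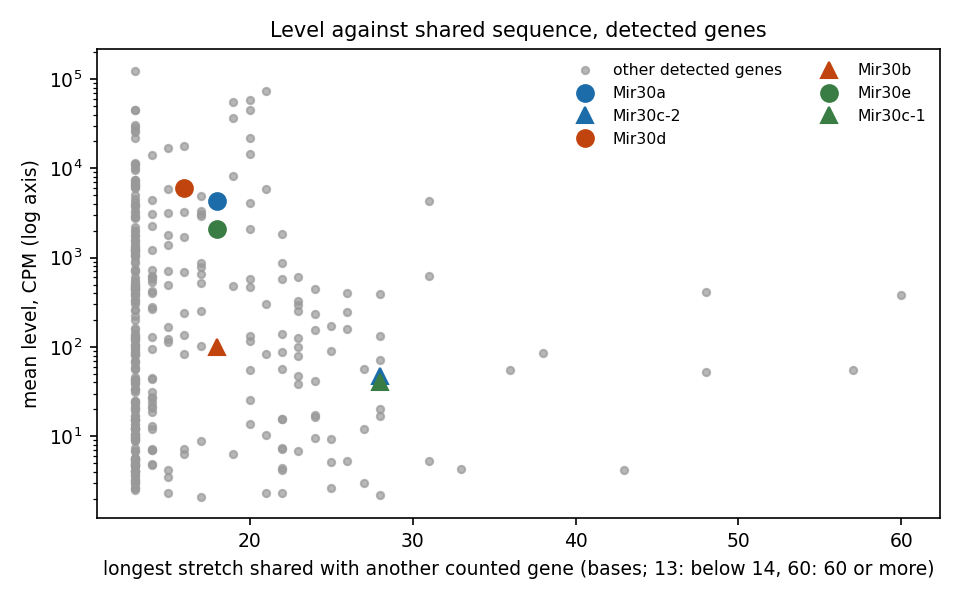
Mean level of each detected gene (CPM, log axis) against the longest stretch of bases it shares with another counted gene, with mir-30 genes coloured by locus (circles for the higher, triangles for the lower gene of a pair) and other genes in grey. Mir30c-1 and Mir30c-2 stand at 28 bases, and Mir30a, Mir30b and Mir30e at 18 bases, with means of 4281, 101 and 2093 CPM.

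Strand decided whether Mir30e was seen at all. For Mir30a, Mir30b, Mir30c-1, Mir30c-2 and Mir30d, the counts taken without regard to strand equalled the own-strand counts in both libraries, and none of the 6 genes had a count on the opposite strand. Mir30e had 13214 and 7865 own-strand counts but 0 in both libraries when strand was ignored, where its interval also belongs to Mir30f. Ambiguous reads then numbered 700483 in library 1 and 513662 in library 2, against 0 in the own-strand counts. The opposite-strand counts of Mir30f were 13214 in library 1 and 7865 in library 2, equal to the own-strand counts of Mir30e. Mir30f itself had 0 own-strand counts in both libraries, which leaves room for a level of 0.539 CPM at most in library 1 and of 0.692 CPM in library 2, so it was not detectable at this depth. Its mature form is shown because its name places it in the family.

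miR-30f: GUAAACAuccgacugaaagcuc

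The capitals mark the letters of the mir-30 seed, which stand at bases 1 to 7 of miR-30f and not at 2 to 8, so its own seed is another. Among the 1738 mature forms of the RefSeq table, 1 further gene has a form with the mir-30 seed, Mir384, whose 5p form lies at chrX:105344332-105344354 on the minus strand.

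miR-384-5p: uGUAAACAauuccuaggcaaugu

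Beyond the first 8 bases, miR-384-5p and miR-30c-5p differ at 12 of the 23 positions. Mir384 was detected at low level, with 18 counts or 3.23 CPM in library 1 and 27 counts or 6.23 CPM in library 2, and its ratio between the libraries did not pass the test described next (log2 ratio 0.92, adjusted p = 0.0627 by the exact counting test).

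The libraries were compared by an exact two-sided binomial test of each gene's counts given totals scaled with TMM factors from the detected genes, with Benjamini-Hochberg adjustment over all 335. The test compares these libraries and no conditions, and it called 186 genes (55.5%), 96 of them higher in library 2 (28.7%) and 90 lower (26.9%). With TMM factors from all counted genes the calls were 74 higher and 117 lower, and with a filter of only 1 count in either library, which 740 genes passed, they were 80 and 118. Against that background, 5 of the 6 mir-30 genes were called. Higher counts let the test call smaller differences, so the share over all genes is no match for Mir30a, Mir30d and Mir30e. The median absolute log2 ratio was 0.35 over the 6 members and 0.21 over all detected genes.

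The high set was lower in library 2 and the mir-30c genes were higher. Mir30e fell furthest, from 2373 to 1814 CPM, a log2 ratio of -0.41 (95% exact interval -0.45 to -0.37, adjusted p = 2.72e-89 by the exact counting test), and 31 of the 335 genes had a more negative ratio. Mir30a went from 4674 to 3888 CPM, at -0.29 (-0.32 to -0.26, adjusted p = 1.44e-90), and Mir30d from 6334 to 5568 CPM, at -0.21 (-0.23 to -0.18, adjusted p = 2.33e-66), by the same exact test. Such differences were common among genes of their level: of 85 genes at 1000 CPM or more, 17 lay below Mir30a and 26 below Mir30d, but 4 below Mir30e. Mir30c-1 was higher in library 2 at 0.53 (0.24 to 0.82, adjusted p = 7.14e-04) and Mir30c-2 at 0.51 (0.24 to 0.78, adjusted p = 4.47e-04), both by the exact counting test, and with little between them. Of the 89 genes between 20 and 200 CPM, 14 lay above Mir30c-2. Mir30b was at 0.13 (-0.05 to 0.31), which did not pass the test (adjusted p = 0.225, exact). Each member's sign was the same under every scaling and filter tried that gave it a value.

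**Figure D4:**
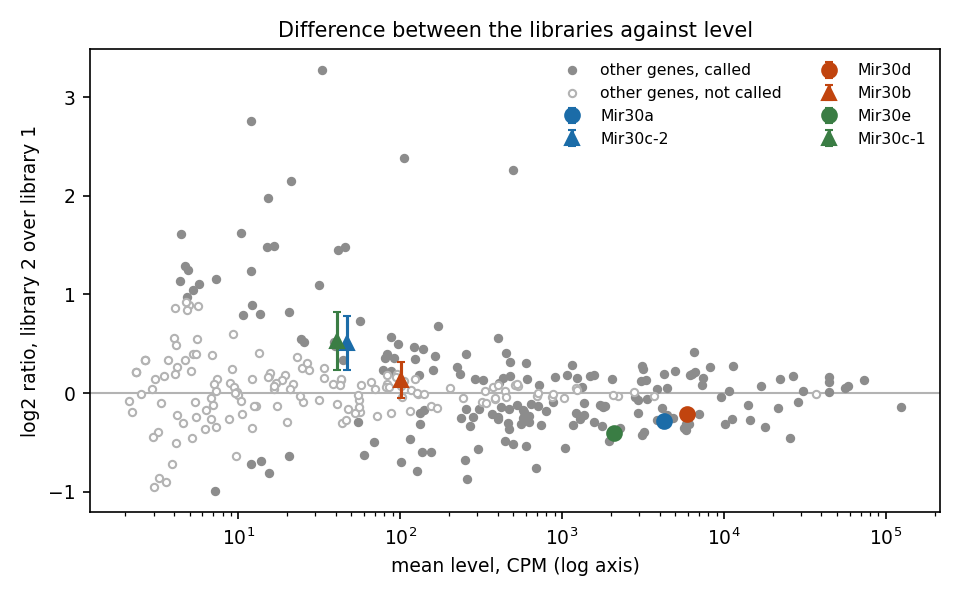
Log2 ratio of library 2 to library 1 after TMM scaling against mean level (CPM, log axis) for the 335 detected genes, with mir-30 genes coloured by locus and bars for 95% exact counting intervals, and other genes filled where called and open where not. Mir30a, Mir30d and Mir30e lie below 0 at high level, and Mir30b, Mir30c-1 and Mir30c-2 above 0 at lower level.

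The within-locus ratio differed between the libraries at all 3 loci, a comparison that no scaling can change. Fisher's exact test of gene by library counts was run for all 123 neighbouring pairs with Benjamini-Hochberg adjustment, and it called 61 (49.6%). The log2 ratio of Mir30e to Mir30c-1 was lower in library 2 by 0.94 (95% exact interval of the difference -1.24 to -0.64, adjusted p = 7.85e-10 by Fisher's exact test), and 3 of the 123 pairs moved further in either direction. For Mir30a and Mir30c-2 the difference was -0.80 (-1.07 to -0.52, adjusted p = 1.87e-08), with 7 pairs further, and for Mir30d and Mir30b -0.34 (-0.52 to -0.16, adjusted p = 6.32e-04), with 44 further, by the same exact test. The median size over the other 120 pairs was 0.24. All 3 tests share the same libraries, and the differences on chromosomes 4 and 1 rest on mir-30c counts, which the shared stretch makes uncertain.

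Other measures moved between the libraries as well. Genes between 20 and 200 CPM, the range of the low mir-30 set, had a median log2 ratio of 0.10. Genes at 1000 CPM or more, the range of the high set, had one of -0.04, a difference in the same direction but smaller. The median was 0.15 for genes from 2 to below 20 CPM and -0.09 for those from 200 to below 1000 CPM, so it did not fall steadily with level. Detected genes with a shared mature form had a median of 0.02 and those without one 0.01. Endothelial Mir126a stood at 29519 CPM in library 1 and 21931 in library 2. The summed level of the 4 leukocyte markers, all detected, was 657 and 408 CPM, and that of the 4 connective tissue markers, 3 of them detected, was 5341 and 4176 CPM. The smooth muscle pair Mir143 and Mir145a summed to 25509 and 29100 CPM, the 2 erythroid markers to 96.8 and 119 CPM, and the 5 epithelial markers, 4 of them detected, to 258 and 350 CPM. The liver gene Mir122 was at 169 and 824 CPM, and the 3 brown fat markers, 2 of them detected, summed to 1316 and 1391 CPM. Of 8 neural and glial markers 2 were detected, the 8 summed to 348 and 338 CPM, nearly all from Mir338, and 3 neural genes, Mir124a-2, Mir124a-3 and Mir9-2, were at 0. The part of these in the mir-30 differences was not tested, and in bulk tissue fewer cells of a type and less RNA per cell cannot be told apart.

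Among the other detected genes, those nearest in level were found for each member by Euclidean distance on log2(CPM + 0.5) over the 2 libraries. Mir409 at 6067 ± 858 CPM (SD, n = 2) and Mir299a at 5827 ± 840 CPM were nearest to Mir30d, at distances of 0.08 and 0.09. Mir27b at 4139 ± 594 CPM and Mir376a at 4478 ± 445 CPM were nearest to Mir30a, and Mir99b at 1938 ± 439 CPM and Mir125a at 2282 ± 370 CPM to Mir30e. Mir350 at 102 ± 4.45 CPM and Mir672 at 106 ± 7.44 CPM lay closest to Mir30b. Mir193a at 44.1 ± 7.76 CPM and Mir345 at 43.3 ± 3.34 CPM lay closest to Mir30c-2. Mir187 at 39.4 ± 9.50 CPM and Mir1188 at 38.9 ± 10.1 CPM lay closest to Mir30c-1, both also higher in library 2. With 2 libraries, likeness here means a similar level and a similar ratio and nothing more.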

How the data were processed

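Per the labels, small RNA below 30 bases was sequenced from gastrocnemius in 2 libraries of 1 group. The authors deposited raw counts per gene on mm10 with GENCODE M21, as the text deposited beside the tables says. The sources used here do not give the aligner, the counter or how bases that differ between the parental strains were treated. The 3 count columns carry no names. The one read as own-strand, with 1.70% and 2.09% of reads in no feature, gave all main values, and the 4 lines that name no gene, 46.6% of reads in library 1 and 48.9% in library 2, were left out of totals. No column was left unused for want of a sample.

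All 2202 identifiers matched GENCODE M21 symbols. TMM factors came from edgeR 4.0.16 in R 4.3.3, with DESeq2 1.42.0 size factors as an alternative. Tests, intervals and figures used Python 3.11.15, scipy 1.17.1, numpy 2.4.6, pandas 2.3.3 and matplotlib 3.10.9. The threshold was an adjusted p of 0.05, the pseudocount 0.5 CPM, the limit for a count of 0 was 3 counts, and shared stretches were searched from 14 bases on. The test scripts were tested on simulated data with counting error only, which says nothing of spread between animals or of duplicate reads. The members and lists were chosen with earlier results of these data known. Genes named were the 6 members, genes sharing their seed or interval, the 2 detected genes nearest in level to each, host genes and marker lists. Mir133b, Mir99a, Mirlet7c-1 and Mirlet7f-2 were named after their values were seen. All p-values measure counting error between these libraries, with each read treated as a separate molecule, and not the spread between animals. Printed sequences are from RefSeq, GRCm38.p6, and shared stretches were searched in GENCODE M21 transcripts. Alternatives were other scalings, filters, pseudocounts, denominators, gap limits, stretch lengths, strand-blind counts and leaving out each library.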

Additional observations from a re-analysis of the deposited data

Results flagged for a closer look

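Outside the counts used for the main values, Mir30f had 13214 opposite-strand counts in library 1 and 7865 in library 2, above the 3 counts that a count of 0 allows, and these equal the own-strand counts of Mir30e. They made up 1.89% and 1.53% of the reads that became ambiguous when strand was ignored. Reads matching several places and counted to no gene numbered 3842752 in library 1 and 3187607 in library 2, which was 50.9 and 64.0 times the mir-30 counts of those libraries.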

How the results depend on the processing

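Of 118 values recomputed under other settings, 98 were kept, 19 moved further and 1 turned its sign. Kept meant the same direction and call, a value within 1 SD or, for numbers of genes, pairs or members, one within a set fold limit. By that limit 165 genes called with strand ignored, against 186, counted as kept. The 98 include the values from leaving out a library. With 2 libraries these always lie within 1 SD of the mean, so that part of the count was fixed in advance. Each of the 5 calls held under every setting that gave a value. Ignoring strand took Mir30e to 0 CPM and Mir30a, Mir30d and Mir30b to 4878, 6781 and 115 CPM, the locus shares of chromosomes 1, 15 and 4 to 41.5%, 58.1% and 0.396%, and the log2 ratio of Mir30e to Mir30c-1 to -6.52, its interval then being shared with Mir30f. As CPM of all reads, Mir30a, Mir30c-2, Mir30d, Mir30b, Mir30e and Mir30c-1 were at 2241, 24.4, 3114, 52.7, 1097 and 21.1, and the family share was 0.655%. Without the most abundant gene in the total, Mir30a, Mir30d and Mir30b were at 4891, 6799 and 115 CPM and the family share was 1.43%. With shared stretches of 18 bases in place of whole mature forms, 5 members and not 2 shared sequence with another gene. Leaving out a library gave the other's value with no test. The family share then ran from 1.15% to 1.35%, the 3 log2 ratios within loci from 6.12 to 6.91 (chromosome 1), 5.70 to 6.04 (15) and 5.22 to 6.15 (4), and member levels between the library values already given. TMM over all counted genes was added after the data were seen. Within 10 kb the chromosome 1 pair gave no value, and with strand ignored Mir30e gave no library ratio. No paired analysis was possible because there is only 1 group. Depth limits the low set, where 183 to 532 counts stand behind each value.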
